A study of Homo sapiens with 6 samples.

Results

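The amino acid and endoplasmic reticulum (ER) stress response was followed as 37 genes of the ATF4 pathway, the ER unfolded protein response and its mitochondrial counterpart, out of 19775 genes measured on 6 arrays of H295R/TR SF-1 cells. The genes were listed by name, and each was represented by the probe set of its symbol with the highest mean over the 6 arrays. All 37 genes had one. H295R/TR SF-1 is a subclone of H295R, a line from a human carcinoma of the adrenal cortex, in which doxycycline (Dox) switches on an SF-1 transgene. SF-1, the product of NR5A1, is the nuclear receptor that drives steroidogenic genes in adrenal cells. Of the 6 arrays, 3 were labelled as basal conditions and 3 as Dox at 1 µg/mL, all after 72 h in the same low serum medium. Basal cells carry the same inducible transgene as Dox cells, and both groups come from this 1 subclone. The study's comparison asks which genes a higher SF-1 dosage changes. Values are log2 signals as deposited, and each array is called by its label with a number that follows deposition.

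ATF4 is the transcription factor at the end of the integrated stress response. Stress kinases phosphorylate the initiation factor eIF2 when amino acids run short, when unfolded proteins gather in the ER or when mitochondria are damaged, and ATF4 mRNA is then translated while most translation falls. ATF4 and its partners of the C/EBP family raise genes for amino acid synthesis and uptake, tRNA charging and feedback on the response, while the ER branches through ATF6 and XBP1 raise chaperones and degradation factors.

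Some arrays stood close to arrays of the other label. Over all probe sets, Dox 1 differed from basal 1 with an SD of 0.134 and Dox 2 from basal 3 with an SD of 0.149, with 0 probe sets past 2-fold in either pair. Among these 4 arrays the SD of any other difference was 0.258 to 0.265, with 525 to 542 probe sets past 2-fold. Basal 2 and Dox 3 each stood farther from the 4, with an SD of 0.389 to 0.461 and 1132 to 2264 probe sets past 2-fold, and differed from each other with an SD of 0.318 and 622 probe sets past 2-fold. Basal 2 and Dox 3 had the narrowest spread of signals over probe sets (SD 2.36 and 2.37, against 2.43 to 2.44 on the other 4 arrays), and array medians lay between 5.56 and 5.60. NR5A1 had log2 signals of 5.84, 5.92 and 6.30 in basal 1, 2 and 3 and of 5.55, 6.21 and 6.41 in Dox 1, 2 and 3, so the library labelled Dox 1 lay below all basal arrays. NR5A1 has 1 probe set, with signals not far above the array medians and, in Dox 1, below the median. It thus says little about induction on single arrays. The study shows SF-1 overexpression after Dox by immunoblot, which is not tied to these arrays. Given the likeness of arrays across labels, directions between groups rest on the labels, and single arrays are described first. Of 8 measured adrenocortical markers, 0 lay below the array median on all arrays, against 3 of 5 endothelial, 2 of 5 stromal, 2 of 4 blood and 2 of 4 adrenal medulla markers. Among the adrenocortical markers, MC2R lay below it on 5 arrays, HSD3B2 on 2 and NR5A1 on 1.

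Within this wider separation of basal 2, part of the stress genes were high there. In basal 2, 7 of the 37 genes were at least 2-fold above the mean of basal 1 and basal 3, where 0.728% of all genes were, and 0 were at least 2-fold below, where 2.82% of all genes were. These 7 genes were CHAC1, ASNS, DDIT3, XBP1, PHGDH, JDP2 and TRIB3. PSAT1 fell just short of the threshold at a log2 difference of 0.98, and TRIB3 lay just inside it at 1.13. The median log2 difference was 0.34 over the 37 genes and 0.02 over all genes, and 29 of the 37 genes were above 0 (51.7% of all genes). Basal 2 was the highest of the 6 arrays for 22 genes (27.9% of all genes) and the lowest for 3 (25.4% of all genes). With 1 array on one side these differences have no test. In bulk RNA, more cells that express a gene and more of its RNA per cell cannot be told apart.

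**Figure D1:**
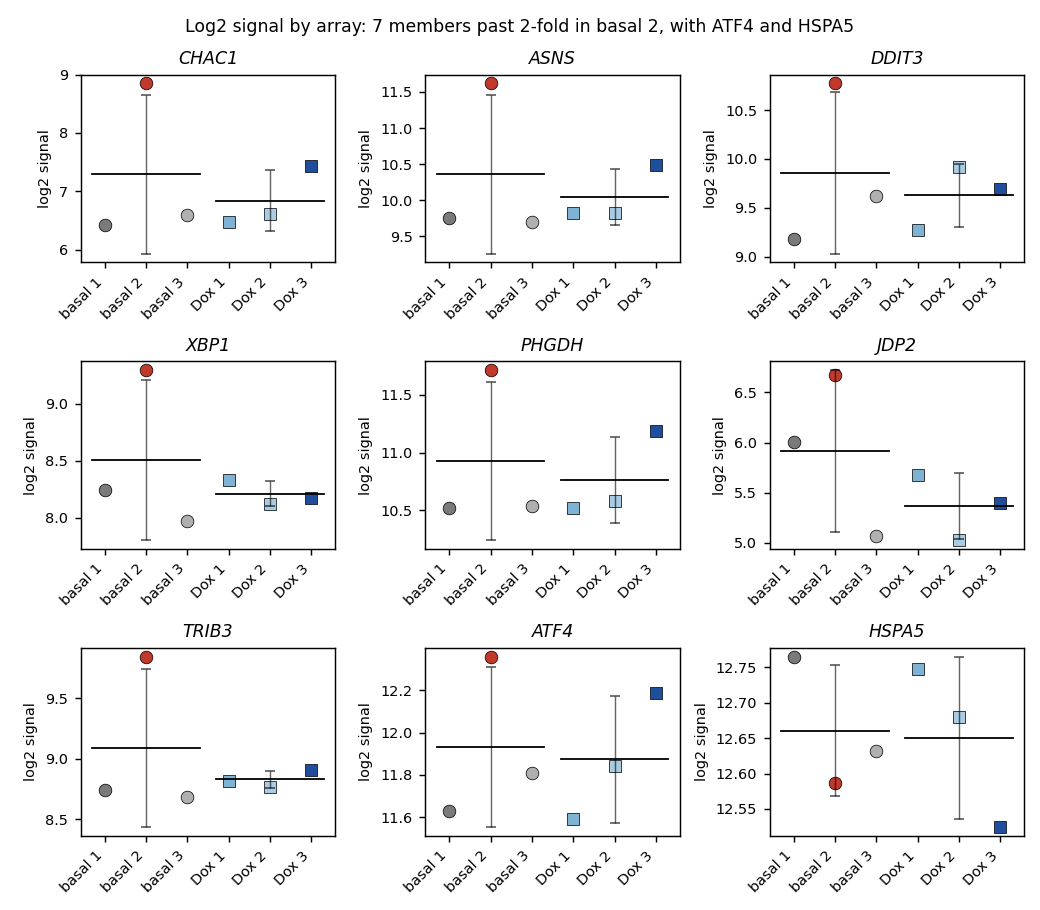
Log2 signal (vertical axes, scaled to each gene and not starting at 0) on each of the 6 arrays (horizontal axes) for the 7 genes past 2-fold in basal 2 and for ATF4 and HSPA5. Circles are basal arrays, squares are Dox arrays, horizontal lines are group means and whiskers are the SD over 3 arrays. Basal 2 is the highest point in 8 of the 9 panels, and for HSPA5 it lies below basal 1, basal 3, Dox 1 and Dox 2.

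Feedback and signalling genes included the largest difference of the set. CHAC1, an enzyme that degrades glutathione and a late target of ATF4 and CHOP, gave log2 signals of 6.42, 8.86 and 6.59 in basal 1, 2 and 3 and of 6.47, 6.62 and 7.44 in Dox 1, 2 and 3. Basal 2 was 5.09-fold above the mean of basal 1 and 3, Dox 3 stood second, and the other 4 arrays lay within 0.20 of each other. TRIB3, a pseudokinase that restrains ATF4 and CHOP, had 8.74, 9.84 and 8.68 in the basal arrays and 8.81, 8.77 and 8.90 in the Dox arrays. Its basal 2 value was 2.19-fold above the other basal arrays, and the other 5 arrays were close together. SESN2, which signals amino acid shortage to mTORC1, was higher in basal 2 by 0.88 and PPP1R15A (GADD34), which restores eIF2 by removing its phosphate, by 0.81, both as log2 differences under the 2-fold threshold. The exception was DDIT4 (REDD1), an inhibitor of mTORC1, with a log2 difference of −0.46.

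Of the stress transcription factors, 2 of 8 passed the 2-fold threshold in basal 2 (0.728% of all genes) and 6 were highest there (27.9% of all genes). DDIT3, which encodes CHOP, had log2 signals of 9.18, 10.78 and 9.62 in the basal arrays and 9.27, 9.91 and 9.70 in the Dox arrays, and basal 2 was 2.60-fold above the mean of the other basal arrays. JDP2, a basic leucine zipper repressor, had 6.01, 6.67 and 5.07 in the basal arrays and 5.68, 5.02 and 5.40 in the Dox arrays, with 3 arrays below the array median. Basal 2 was again the highest array for both genes, but their other arrays were not alike: DDIT3 was lowest in basal 1 and Dox 1, and JDP2 was lowest in basal 3 and Dox 2. ATF4 itself had 11.63, 12.36 and 11.81 in the basal arrays and 11.59, 11.84 and 12.19 in the Dox arrays, so basal 2 and Dox 3 were the highest arrays by smaller margins than for CHAC1 and ASNS. ATF3, a stress repressor that ATF4 and CHOP induce, had 6.26, 6.88 and 5.84 against 6.28, 5.96 and 5.84. The log2 difference of basal 2 from the other basal arrays was 0.82 for ATF3, 0.64 for ATF4, 0.54 for CEBPG, 0.25 for CEBPB, 0.11 for NUPR1 and −0.34 for ATF5, the factor tied to mitochondrial stress.

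All 6 genes of serine, one-carbon and asparagine synthesis were highest in basal 2, as were 27.9% of all genes. ASNS, asparagine synthetase, gave log2 signals of 9.76, 11.62 and 9.69 in the basal arrays and 9.82, 9.83 and 10.49 in the Dox arrays. Basal 2 was 3.72-fold above the mean of basal 1 and 3, and Dox 3 lay between basal 2 and the other 4 arrays, as it did for CHAC1. PHGDH, which opens the serine pathway, had 10.52, 11.72 and 10.54 in the basal arrays and 10.52, 10.58 and 11.19 in the Dox arrays, with basal 2 higher 2.28-fold. PSAT1, the aminotransferase of the next step, had 11.92, 12.82 and 11.75 against 11.94, 11.82 and 12.11. The other log2 differences were 0.59 for SHMT2 and 0.43 for MTHFD2, mitochondrial enzymes of folate-bound carbon, and 0.34 for PSPH, which completes serine. The group thus lay on 1 side of 0, and its median was 0.79.

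Transporters and secreted factors moved less. Of the 3 transporter genes, SLC3A2, the shared heavy chain, had a log2 difference of 0.80 in basal 2, SLC7A5, the LAT1 light chain for large neutral amino acids, 0.32 and SLC7A11, the cystine carrier, −0.07 (−0.88 to 0.35 over its 3 probe sets). FGF21 (−0.05), GDF15 (0.14), STC2 (0.28) and VLDLR (0.12), which encode 3 secreted factors and a lipoprotein receptor, stayed within 0.28 of the other basal arrays. FGF21 and STC2 lay below the array median on all 6 arrays, where a signal says little about expression.

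The ER branch was split in basal 2. XBP1, whose mRNA the ER sensor IRE1 splices into an active factor, had log2 signals of 8.25, 9.30 and 7.97 in the basal arrays and 8.34, 8.12 and 8.17 in the Dox arrays, and basal 2 was 2.28-fold above the other basal arrays. HSPA5 (BiP), the chaperone that ER stress induces through ATF6, had 12.76, 12.59 and 12.63 against 12.75, 12.68 and 12.52, and basal 2 was not high. The probe set of XBP1 cannot tell spliced from unspliced mRNA. Among the other ER genes the log2 difference of basal 2 was 0.46 for HERPUD1 and −0.58 for SEL1L, both of ER-associated degradation, −0.17 for DNAJB9, a cochaperone of BiP, and 0.18 for ATF6. Of the 5 mitochondrial genes, the protease subunit CLPP was higher by 0.41 and the chaperone HSPA9 was lower (−0.39), while HSPD1, HSPE1 and the protease LONP1 were within 0.05 of the other basal arrays. Role medians of the log2 difference were 0.88 for feedback genes, 0.79 for synthesis, 0.59 for transcription factors, 0.32 for transporters, 0.13 for secreted factors, 0.03 for the ER group and 0.04 for the mitochondrial group.

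The choice of probe set mattered for some genes. CHAC1, DDIT3, PHGDH and ATF4 each had 1 probe set. The second probe set gave a log2 difference in basal 2 of 0.27 for ASNS, 0.13 for XBP1, 0.50 for TRIB3 and 0.39 for JDP2, all with a mean below the median probe set, while SESN2 reached 1.44 and PSAT1 1.10 with their second sets. SEL1L ran from −0.77 to 0.69 over 4 probe sets. ATF6 ran from −0.27 to 0.18 over 4 probe sets, and only the set used was above 0. HSPD1 had 1 of 5 probe sets at 2.77, with a mean below the median probe set, and the others between −0.00 and 0.48. In Dox 3 against the other Dox arrays, 3 genes had another probe set past 2-fold where the set used was not: SLC7A11 at −1.69 and SESN2 at 1.39, both with a mean above the median probe set, and HSPD1 at 2.50 with a mean below it. In Dox 3 against basal 2, the second set of PSAT1 stood at −1.34. ATF3, at −1.03 with the set used, had −0.19 and −0.20 with its other sets, the first with a mean above the median probe set. Against Dox 1 and Dox 2, those sets put Dox 3 at 0.21 and 0.18, and the set used put it at −0.28. The second sets of JDP2, ASNS and XBP1, with means below the median probe set, had −0.18, −0.20 and 0.02 against basal 2.

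Promoter sequence is shown for 7 of these genes because ATF4 and the C/EBP factors, and ATF6, are known to act through defined elements there. The RefSeq promoter table (GRCh38.p14, from 250 bases before to 50 after each start) had entries for 32 of the 37 genes, 13 of them with more than 1 start. The letters of the C/EBP-ATF response element, TGATGNAA on either strand, stood in the promoters of 8 of the 32 (25%), against 4.46% of 27305 genes with an entry. The letters of the ER stress element, CCAAT and CCACG with any 9 bases between them on either strand, stood in 2 of the 32 (6.25%, against 0.0916% of genes). Those of the unfolded protein response element TGACGTGG (0.927% of genes) and of the SF-1 site CAAGGTCA (1.6% of genes) stood in 0 of the 32. The 37 genes were picked as known genes of these pathways, so a share above that of all genes could be foreseen. A gene with more starts also has more sequence to match. The windows below run 5′ to 3′ on the strand of the gene, with the matched letters in capitals. The first 5 hold the C/EBP-ATF letters, which for CHAC1 and FGF21 are on the opposite strand and so appear as TTGCATCA, and the last 2 hold the ER stress element.
CHAC1: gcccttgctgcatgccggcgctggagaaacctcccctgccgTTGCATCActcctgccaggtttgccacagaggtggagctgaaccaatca
ASNS: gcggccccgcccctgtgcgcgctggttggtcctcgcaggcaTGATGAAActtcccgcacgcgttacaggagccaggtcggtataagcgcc
JDP2: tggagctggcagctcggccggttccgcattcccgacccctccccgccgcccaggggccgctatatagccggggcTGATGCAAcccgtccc
ATF3: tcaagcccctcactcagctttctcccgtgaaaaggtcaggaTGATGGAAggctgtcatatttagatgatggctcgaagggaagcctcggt
FGF21: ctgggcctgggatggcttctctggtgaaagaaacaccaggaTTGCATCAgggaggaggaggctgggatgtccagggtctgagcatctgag
XBP1: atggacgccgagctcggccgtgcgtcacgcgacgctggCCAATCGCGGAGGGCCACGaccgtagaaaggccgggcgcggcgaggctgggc
HSPA5: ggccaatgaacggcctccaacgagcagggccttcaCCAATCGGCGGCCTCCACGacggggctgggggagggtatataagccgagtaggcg

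The windows lie at chr15:40953221-40953310 (plus strand), chr7:97872428-97872517 (minus), chr14:75427932-75428021 (plus), chr1:212565175-212565264 (plus), chr19:48755429-48755518 (plus), chr22:28800570-28800659 (minus) and chr9:125241355-125241444 (minus), all upstream of an annotated start. The capitals begin at base −209 from the start in CHAC1, −68 in ASNS, −16 in JDP2, −191 in ATF3, −54 in FGF21, −52 in XBP1 and −66 in HSPA5. SLC3A2, HERPUD1 and CEBPG held the C/EBP-ATF letters too. Over the 8 genes with these letters the log2 difference of basal 2 ran from −0.05 (FGF21) to 2.35 (CHAC1) with a median of 0.81, and 3 passed 2-fold. Over the 24 genes with an entry and no such letters it ran from −0.58 to 1.38 with a median of 0.21, and 4 passed 2-fold. Most ER and mitochondrial genes, with role medians of 0.03 and 0.04, are among these 24, so element and role cannot be told apart here. Sequence farther from the starts was not searched. The 2 genes with the ER stress element differed in basal 2, with XBP1 high and HSPA5 not. These are matches of letters and were not tested as binding sites.

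Dox 3 shared part of the basal 2 profile. Basal 2 and Dox 3 were the 2 highest arrays for 15 of the 37 genes (25.4% of all genes) and the 2 lowest for 4 (26.6% of all genes). Against the mean of Dox 1 and Dox 2, and with the probe sets used, 0 of the 37 genes were 2-fold higher (0.885% of all genes) or lower in Dox 3 (1.82% of all genes), and the median log2 difference was 0.02. The highest were CHAC1 (0.90), ASNS (0.67) and PHGDH (0.64), each also high in basal 2. XBP1 (−0.06), JDP2 (0.05), DDIT3 (0.10) and TRIB3 (0.11) were near 0 in Dox 3 although high in basal 2. At the low end, VLDLR had 9.09, 8.96 and 8.58 in the basal arrays and 9.10, 8.61 and 8.03 in the Dox arrays, a log2 difference of −0.82 for Dox 3. NUPR1, a small stress-induced chromatin protein, had 7.20, 6.93 and 6.42 against 7.09, 6.50 and 5.99 (−0.80), and SLC7A11 stood at −0.74. Dox 3 was the lowest of the 6 arrays for 11 genes (21.4% of all genes).

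**Figure D2:**
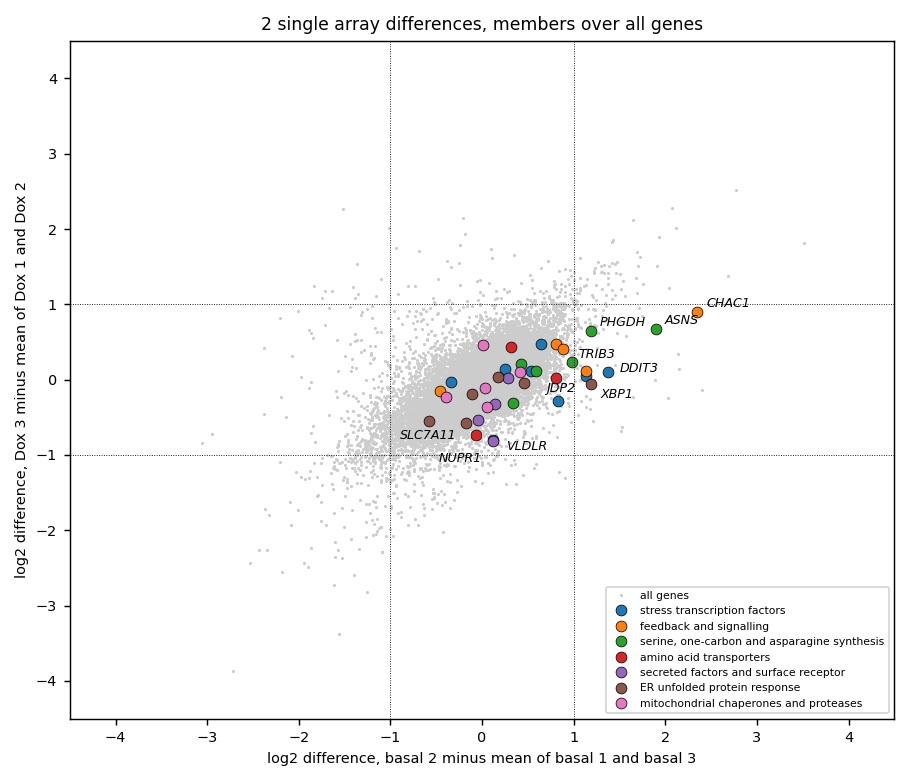
Log2 difference of basal 2 from the mean of basal 1 and basal 3 (horizontal axis) against that of Dox 3 from the mean of Dox 1 and Dox 2 (vertical axis). Grey points are all 19775 genes, coloured points are the 37 stress genes by role, and dotted lines mark 2-fold. CHAC1, ASNS and PHGDH are high on both axes, DDIT3, XBP1, JDP2 and TRIB3 are high on the horizontal axis and near 0 on the vertical one.

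Set directly against basal 2, Dox 3 was at least 2-fold lower for 6 of the 37 genes (0.662% of all genes) and 2-fold higher for 0 (1.02% of all genes). The 6 were CHAC1 with a log2 difference of −1.42, JDP2 with −1.27, ASNS with −1.13, XBP1 with −1.12, DDIT3 with −1.08 and ATF3 with −1.03. The median over the 37 genes was −0.39 and that over all genes −0.01. By median size, differences among the other 4 arrays were smaller. Of the 37 genes, 0 were past 2-fold in either direction for Dox 2 minus basal 1 (0.915% of all genes higher and 0.743% lower), for basal 3 minus basal 1 (0.87% and 0.779%) or for Dox 2 minus Dox 1 (0.93% and 0.662%). With shares this low, 0 of 37 is close to what all genes show. Median sizes over the 37 genes were 0.23 for basal 3 minus basal 1, 0.18 for Dox 2 minus basal 1 and 0.15 for Dox 2 minus Dox 1. Over all genes they were 0.12, 0.12 and 0.11, so the medians of the stress genes were larger there too. Dox 3 minus basal 2 had 0.42 (0.17 over all genes). Dox 1 minus basal 1 had a median size of 0.04 (0.06 over all genes) and a largest size of 0.33 (JDP2). Dox 2 minus basal 3 had 0.06 (0.07 over all genes) and 0.29 (DDIT3). In sign, Dox 1 minus basal 1 was above 0 for 23 genes (46.6% of all genes) and Dox 2 minus basal 3 for 32 (53.8% of all genes), while Dox 3 minus basal 2 was above 0 for 5 (48.4% of all genes). Between the pairs, basal 3 minus basal 1 ran from −0.94 for JDP2, −0.78 for NUPR1 and −0.51 for VLDLR to 0.44 for DDIT3, and Dox 2 minus Dox 1 from −0.65 for JDP2 to 0.64 for DDIT3.

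**Figure D3:**
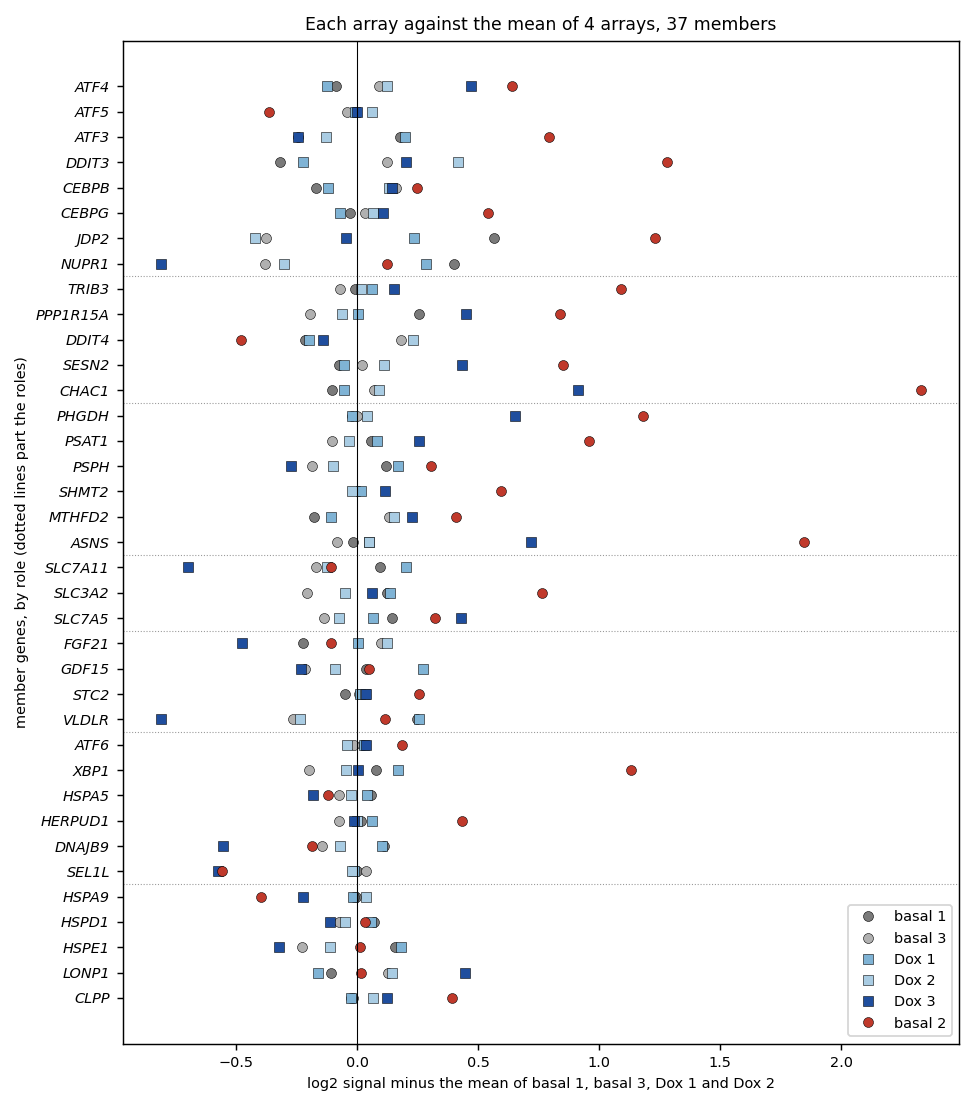
Log2 signal of each of the 37 genes (rows, by role) on each array, less the mean of basal 1, basal 3, Dox 1 and Dox 2 (horizontal axis). Circles are basal arrays and squares Dox arrays. Compared across rows, the red basal 2 points reach farthest right for CHAC1 and ASNS and farthest left for SEL1L, DDIT4, HSPA9 and ATF5. Within the SEL1L row the Dox 3 point is slightly farther left. The dark blue Dox 3 points reach farthest left for NUPR1, VLDLR and SLC7A11.

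Some steroidogenic genes stood apart on the same arrays. Of the 8 measured adrenocortical markers, 2 were 2-fold higher in basal 2 than in the other basal arrays (0.728% of all genes). In Dox 3, 2 were 2-fold higher than in the other Dox arrays (0.885% of all genes). HSD3B2, a steroid dehydrogenase, had 6.49, 7.89 and 5.003 in the basal arrays and 6.36, 5.51 and 6.07 in the Dox arrays. It lay below the array median on 2 arrays. The log2 difference of basal 2 from the other basal arrays was 2.15, while basal 2 lay 1.40 above basal 1, the next highest array. CYP17A1, the 17-hydroxylase, stood at 1.56, CYP11A1, which opens steroid synthesis, at 0.99 and SCARB1 at 0.39. The other 4 markers were near 0, with MC2R at 0.08, STAR at −0.01, FDX1 at −0.03 and NR5A1 at −0.15. In Dox 3 against the other Dox arrays CYP11A1 stood at 1.21 and CYP17A1 at 1.11, but HSD3B2 at 0.14, FDX1 at −0.27 and STAR at −0.56. The summed log2 level of the 8 adrenocortical markers ranged from 69.6 to 75.8 in the basal arrays and from 70.0 to 73.3 in the Dox arrays. That of the 6 reference genes ranged from 75.3 to 75.7 in both groups, with a median basal 2 difference of −0.02, but single genes moved both ways, from ACTB (0.50 in basal 2 and 0.55 in Dox 3) and GAPDH (0.26 and 0.20) to B2M (−0.24 and −0.09). The summed level of the other markers in the basal and the Dox arrays ranged from 27.9 to 30.1 and 27.4 to 29.9 for stroma, from 24.5 to 24.9 and 24.6 to 25.1 for endothelium, from 20.3 to 20.9 and 20.2 to 20.7 for blood, and from 21.7 to 22.3 and 21.7 to 22.1 for the medulla. Of these markers, only the collagen gene COL3A1 passed 2-fold, with a log2 difference of −1.94 in basal 2 and −2.44 in Dox 3. It also differed between the other arrays, at 8.75 in basal 1 and 8.74 in Dox 1 against 7.09 in basal 3 and 7.08 in Dox 2. The part of these genes, and of the narrower spread of signals on basal 2 and Dox 3, in the profile of the stress genes was not tested.

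Between the labelled groups, no stress gene passed the test. With limma, 0 of the 37 genes were higher and 0 lower at an adjusted p under 0.05 (0% of all genes in each direction). At an unadjusted p under 0.05 limma took 0 of the 37 and 109 of all genes (0.551%), and 0 genes passed the study's 2-fold threshold with it (0%). This share of 0.551% is far below the p threshold, so the test called few genes of any kind on these arrays. The study itself reported genes both up and down with SF-1 overexpression under its 2-fold and p criterion. The study analysed its data with the maker's console software and names no test for its p. The 0 here comes from limma on the probe sets used here, so it does not repeat the study's criterion. The adjusted p from limma was 1 for every stress gene. Fitted log2 differences, Dox minus basal, ran from −0.55 ± 0.39 for JDP2 (SE) to 0.16 ± 0.14 for ATF5, and CHAC1 had −0.45 ± 0.65. CHAC1 averaged 7.29 ± 1.36 in basal and 6.84 ± 0.52 in Dox (SD, n = 3 each), and ASNS 10.36 ± 1.10 and 10.05 ± 0.39, so both differences were within the spread of the basal arrays.

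The sign of this comparison turned on basal 2. With all arrays, 31 of the 37 genes had a fitted difference below 0 (50.2% of all genes) with a median of −0.10. Without basal 2, 14 were below and 23 above 0, and the median was 0.04. Only ATF5 had groups that did not overlap, 1 of 37 genes against 3.17% of all genes. All Dox arrays were above all basal arrays for this gene (1.49% of all genes), and the reverse held for 0 of the 37 (1.68% of all genes). The other 3 probe sets of ATF5 overlapped, and with all its probe sets averaged the difference fell from 0.16 to 0.05. With the set used, its log2 signals were 9.75, 9.40 and 9.72 in the basal arrays and 9.75, 9.82 and 9.76 in the Dox arrays, so Dox 1 and basal 1 were almost equal. The exact permutation test gave p = 0.1 for ATF5, two-sided, and no smaller p can come from 3 arrays a side.

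**Figure D4:**
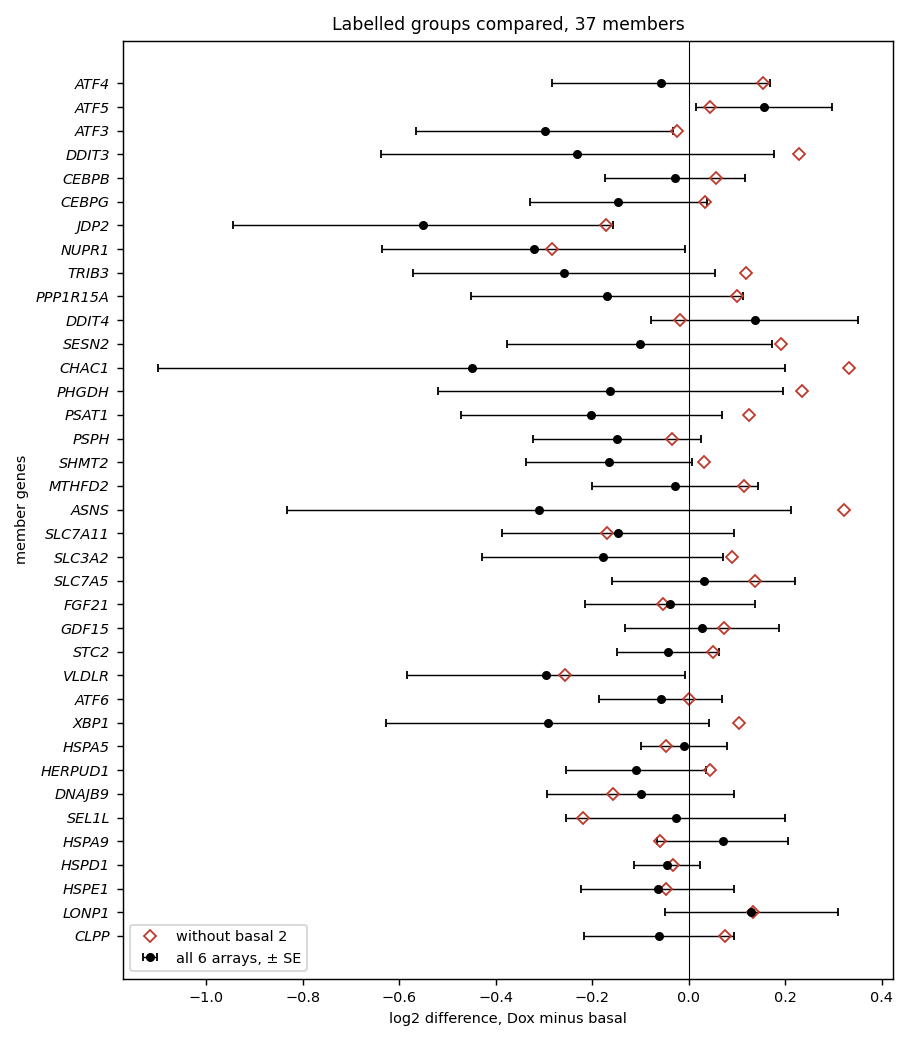
Fitted log2 difference, Dox minus basal (horizontal axis), for the 37 genes (rows). Black points are the fit of all 6 arrays with bars of 1 SE from limma, and red diamonds are the fit without basal 2. For CHAC1, ASNS, DDIT3 and PHGDH the black point lies left of 0 and the diamond right of it.

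A fit without basal 3 and Dox 1, with basal 2 and Dox 3 kept together as a block, called some stress genes. With the same block on all 6 arrays, limma called 0 of the 37 genes and 0 of all genes, with a lowest adjusted p of 0.98 and 0 of the 37 and 313 of all genes at an unadjusted p under 0.05. The fit without basal 3 and Dox 1 set basal 1 and 2 against Dox 2 and 3 with 1 residual degree of freedom. In limma 6 of the 37 genes were lower (3.58% of all genes) and 0 higher (3.42% of all genes). JDP2 had a log2 difference of −1.13 ± 0.13 (SE, adjusted p = 0.000313 in limma), NUPR1 −0.82 ± 0.13 (0.00254) and VLDLR −0.70 ± 0.13 (0.00727). ATF3 (−0.67), PSPH (−0.40) and HSPE1 (−0.30) had adjusted p-values from limma of 0.0319 to 0.0433. With their second probe sets, Dox 2 minus basal 1 was 0.05 for ATF3, 0.16 for JDP2 and −0.32 for PSPH. Dox 3 minus basal 2 was then −0.19, −0.18 and −0.56. DDIT3 went opposite ways in its array pairs, with 0.74 for Dox 2 minus basal 1 and −1.08 for Dox 3 minus basal 2, and was not called. Which arrays to leave out was chosen with their values known, and leaving out these 2 raises the NR5A1 difference, so these p-values are not independent evidence. With the same arrays and no block, limma called 0 of the 37 genes and no other gene, with a lowest adjusted p over all genes of 0.0687. At an unadjusted p under 0.05 limma took 4 of the 37 and 837 of all genes. Without basal 1 and Dox 2 in place of basal 3 and Dox 1, and with no block, limma called 0 of the 37 genes and no other gene. At an unadjusted p under 0.05 that limma fit took 0 of the 37 and 36 of all genes.

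Other genes of the stress pathways stood closer to the bulk of genes in basal 2. Of 88 measured genes in 7 lists, 1 was at least 2-fold higher (0.728% of all genes), the cationic amino acid carrier SLC7A1 (log2 difference 1.12). In the other direction, 1 was 2-fold lower (2.82% of all genes), the site-2 protease MBTPS2 (−1.14) that releases ATF6. Among 17 cytosolic tRNA synthetases 12 were above 0, led by GARS1 (0.94) and CARS1 (0.80) and ending with NARS1 (−0.23) and RARS1 (−0.26), with a median of 0.18. The 14 other ATF4 targets had a median of 0.21, and EIF4EBP1, the translation inhibitor 4E-BP1, stood at 0.76. NIBAN1 (−0.11) and the tRNA exporter XPOT (−0.19) were at the low end, and NIBAN1 lay below the array median on all 6 arrays. Upstream, the 12 genes of eIF2 control had a median of −0.08, with the subunits EIF2B2 at 0.24 and EIF2B4 at 0.22, and with OMA1, the mitochondrial protease that can start the response, at −0.77 and the kinase EIF2AK2 (PKR) at −0.82.

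The folding and oxidative stress lists had medians below 0. The 24 other ER genes had a median log2 difference of −0.10 in basal 2, with the chaperones CALR at 0.77 and HYOU1 at 0.54 and the oxidase ERO1A at −0.63. The 8 other mitochondrial genes had a median of −0.22, from DNAJA3 (0.57) and TRAP1 (0.48) to CLPX (−0.51) and YME1L1 (−0.78). The 7 cytosolic heat shock genes had a median of −0.23, with HSPB1 at 0.96, HSF1 at 0.40, HSPH1 at −0.36 and BAG3 at −0.60. HSPB1, the small heat shock protein HSP27, was also 2-fold higher in Dox 3 than in the other Dox arrays, at 1.45. The 6 NRF2 targets of the oxidative stress response had a median of −0.29, with NQO1 at 0.84, HMOX1 at −0.16, GCLM at −0.38 and GCLC at −0.44. In the comparison of Dox with basal, limma called 0 genes of these lists, and 0 at an unadjusted p under 0.05.

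**Figure D5:**
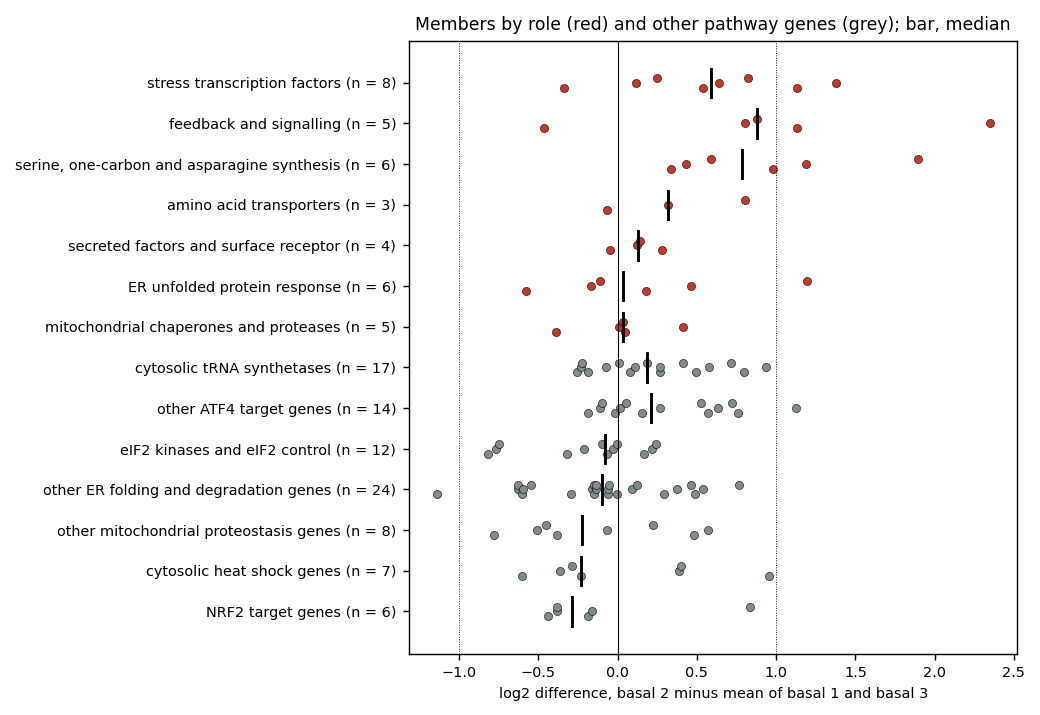
Log2 difference of basal 2 from the mean of basal 1 and basal 3 (horizontal axis) for each gene of the 37 by role (red) and of the 7 other pathway lists (grey), with the median of each row as a black bar. Dotted lines mark 2-fold. The medians of the feedback, synthesis and transcription factor rows, 0.88, 0.79 and 0.59, are the highest, and 1 grey point lies beyond each dotted line.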

How the data were processed

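Total RNA was hybridised to 6 Affymetrix HG-U133 Plus 2.0 arrays, which the study describes as biological replicates. The authors deposited 1 log2 value per probe set and array, made with GCRMA per the submitters' processing notes and the maker's console software. The software version is not given in the sources used here. GCRMA corrects background by probe sequence and pulls low signals together, which understates changes of dim genes. The deposited log2 values were used without scaling or filtering. Precision is limited by how few arrays there are.

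Of 54613 probe sets, 41091 carried 1 gene symbol, 1801 several and 11721 none. Probe sets with several symbols or none were left out. For each of 19775 genes the probe set with the largest mean over the 6 arrays was kept. Groups come from the labels. Dox and basal were compared with limma 3.58.1 (lmFit and eBayes with trend) in R 4.3.3, with Benjamini-Hochberg adjustment over all genes at 0.05, and single genes with an exact permutation test in Python 3.11.15. The labels do not tie arrays to separate cultures, so p-values measure the spread between arrays. Differences of single arrays were set against 2-fold (1 on the log2 scale), with no test, beside the share of all genes past it. The fit was tested on simulated arrays with independent noise. The real arrays are alike across labels, so that check does not show how the fit behaves on them.

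Members and lists were chosen with earlier results of these data known. Values by array are given for members past 2-fold in any single array difference and for a few others chosen after their values were seen, and the 2 highest and 2 lowest genes of each pathway list are named. Alternatives covered probe sets, normalization, filtering, blocks and left-out arrays.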

Additional observations from a re-analysis of the deposited data

How the results depend on the processing

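No paired analysis was possible because the labels give the basal and Dox arrays no shared replicate numbers. Blocks by array set or by style of the sample titles, which are not pairings in the labels, gave 0 calls by limma on all 6 arrays. For Dox against basal, leaving out each array in turn moved the median log2 difference of the 37 genes from −0.20 to 0.04. Each time 0 genes were called by limma. At an unadjusted p under 0.05 limma took 0 or 1 of the 37 genes and 80 to 255 of all genes. Without basal 2 the direction turned. Of the 37 genes, 30 changed the sign of this difference in at least 1 alternative. The fit without basal 3 and Dox 1, with the array set as a block, called 6 of the 37 lower, and 676 genes higher and 707 lower among all genes. At 1.5-fold in place of 2-fold, 14 of the 37 genes (5.05% of all genes) were higher in basal 2 than in basal 1 and 3. In Dox 3, 3 were higher (4.3%) and 3 lower (8.02%) than in Dox 1 and 2, and 12 were lower than in basal 2 (3.03%). With the mean of all probe sets of a gene, 3 were lower in Dox 3 than in basal 2 (0.43%). Subtracting only 1 of the other arrays gave 6 (0.678%, without basal 3) to 10 genes (1.21%, without basal 1) 2-fold higher in basal 2. In Dox 3 it gave 0 (1.25%, without Dox 1) to 2 genes 2-fold lower, NUPR1 and VLDLR (2.89%, without Dox 2). The cause was not tested. Of 127 alternative values of counts and medians, 9 counts moved by more than 1.5 times and are given above. The other 118 include the median that changed sign without basal 2.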
